A study of Mus musculus with 4 samples.

Results

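Chemokine receptors were examined in leukaemic cells recovered from mouse spleens, through 8 genes chosen by symbol: Cxcr2, Cxcr4, Ccr1, Ccr2, Ccr3, Ccr7, Cx3cr1 and Ccrl2. All 8 were found among the 24497 mouse genes of the table, and 7 of them passed the filter on low values described below; Ccr3 did not. The cells came from bone marrow stem cells of Tet2-/- or wild-type (WT) mice, and those of both genotypes had been turned into an acute myeloid leukaemia with NRAS and AE9a, a truncated form of the AML1-ETO fusion protein. Per the labels' protocols, they were cultured with SCF at 50 ng/ml, IL-3 and IL-6 at 10 ng/ml, G418 at 1 mg/ml and puromycin at 2 µg/ml. They were then given to CD45.1+ C57 B6.SJL recipients 6 to 8 weeks old, irradiated with 900 cGy, and CD45.2 cells were enriched from the spleen. RNA sequencing gave 2 libraries labelled Tet2 KO and 2 labelled WT. The labels give neither the Tet2 allele nor the number of mice behind each library. The p-values thus reflect how far these libraries lie apart, and that spread may be technical.

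Chemokine receptors are membrane proteins that couple to inhibitory G proteins and steer cells along gradients of small secreted chemokines. Which receptors a myeloid cell carries changes as it matures, and the receptors mark where it can go. CXCR4 holds progenitors and young neutrophils in the marrow, where its ligand CXCL12 is made, whereas CXCR2 draws mature neutrophils into blood and inflamed tissue. CCR2 and CX3CR1 are known from monocytes, CCR7 from dendritic cells on the way to lymph nodes, CCR3 from eosinophils, and CCR1 from several myeloid cells. CCRL2 is an atypical receptor that binds chemerin without signalling.

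Values are TPM, a length-corrected transcript abundance that can be compared between genes. Estimated from the spacing of low values, 1 read was worth 0.0773 to 0.101 TPM for an effective transcript length of 1 kb across the libraries. By this scale Ccr1, which has a single annotated transcript, rested on about 12018 and 13105 reads in the libraries labelled Tet2 KO and 8215 and 7411 reads in WT. Between the libraries labelled Tet2 KO a robust estimate of the variance came to 6.05 times the sampling variance (1071 genes), against 1.15 times between the WT libraries (1004 genes), which were therefore averaged and counted as 1 sample. Means ± SD of the libraries labelled Tet2 KO have n = 2, and WT means have n = 1. The ERCC spike-in RNAs took 2.95% and 3.19% of TPM in libraries labelled Tet2 KO, against 4.66% and 4.62% in WT. The libraries labelled Tet2 KO held 86.1 and 28.2 TPM of Xist, an RNA of female cells, against 0.34 and 0.34 TPM in WT. The Y-linked gene Eif2s3y stood at 29.8 and 90.4 TPM in libraries labelled Tet2 KO and at 107.4 and 107.2 TPM in WT, so RNA of male cells was present in all 4. Tet2 itself stood at 63.7 and 68.1 TPM in libraries labelled Tet2 KO, against 43.5 and 43.7 TPM in WT. Gene-level TPM cannot reveal a missing exon, and every direction below rests on the labels.

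The receptor set of the cells differed between the labels almost throughout. In the libraries labelled Tet2 KO, Cxcr2 and Cxcr4 were higher, Ccr7, Cx3cr1, Ccr2 and Ccrl2 were lower, Ccr1 did not pass the test, and Ccr3 was close to 0 TPM in both groups. So 6 of the 7 tested receptors passed limma's threshold (adjusted p under 0.05), 2 higher and 4 lower, where 48.8% of all 11919 tested genes passed, 22.1% higher and 26.7% lower. The median log2 change of the 7 was -1.54, beside -0.12 over all genes tested. With values scaled to the ERCC total these medians were -0.95 and 0.43, and no receptor among the 8 changed direction. Without the filter on low values 0 of the 7 passed, in a setting in which only 123 genes were called higher and 295 lower. The groups did not overlap for any of the 8, but they were likewise apart for 87% of all tested genes.

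**Figure D1:**
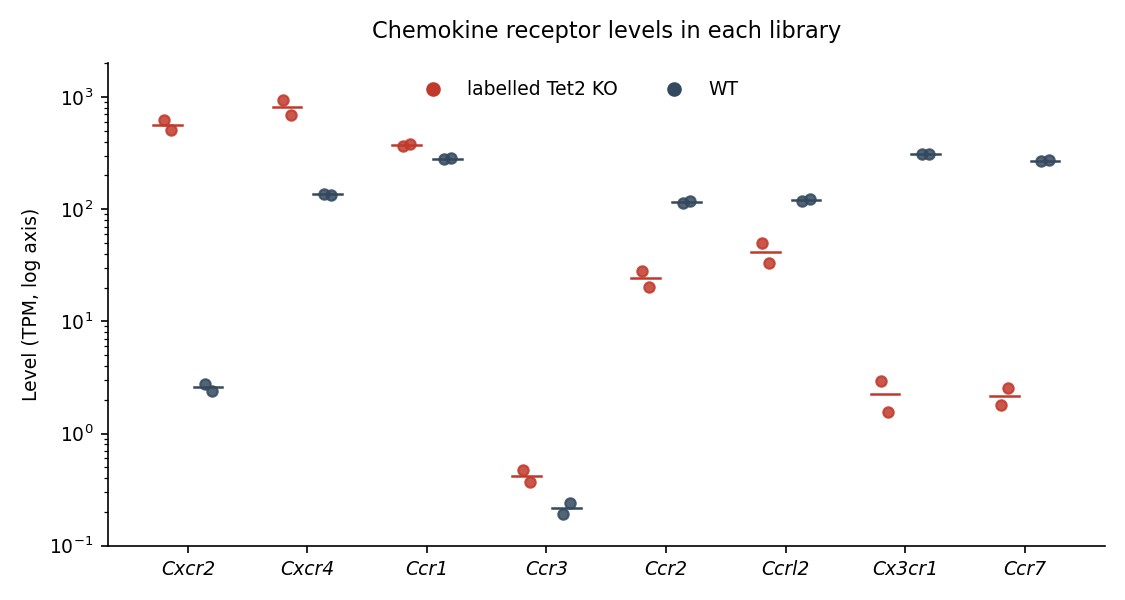
Level of each chemokine receptor in TPM (log axis) in the 2 libraries labelled Tet2 KO (red, left of each pair) and the 2 WT libraries (dark blue, right), with a line at the mean of each group. Cxcr2 lies between 511 and 621 TPM in libraries labelled Tet2 KO and between 2.39 and 2.77 TPM in WT, while Cx3cr1 and Ccr7 lie the other way round.

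Cxcr2 encodes the receptor for the neutrophil-attracting CXC chemokines (chromosome 1, 74153989 to 74161246, plus strand, mm10). It stood at 621 and 511 TPM in libraries labelled Tet2 KO, against 2.77 and 2.39 TPM in WT. The gap between the groups was far wider than that between libraries of a group, which differed 1.22-fold with the Tet2 KO label and 1.16-fold in WT. The mean of 566 ± 78.2 TPM (SD, n = 2) was 219-fold the WT mean of 2.58 TPM. On the log2(TPM + 1) scale the change was 7.30 ± 0.21 (SE, limma adjusted p = 1.02e-12), at place 10 from the highest of all genes tested. Only 0.352% of tested genes were called with a log2 change of at least 6 in either direction. Its near relative Cxcr1 was below the filter, at 0.25 and 0.47 TPM in libraries labelled Tet2 KO, and was listed at 0 in both WT libraries.

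Cxcr4 encodes the receptor for CXCL12 (chromosome 1, 128588199 to 128592293, minus strand). It stood at 939 and 696 TPM in libraries labelled Tet2 KO and at 137 and 134 TPM in WT. It was abundant in both groups, unlike Cxcr2, and its 2 libraries with the Tet2 KO label lay 1.35-fold apart. The mean of 817 ± 172 TPM (SD, n = 2) was 6.04-fold the WT mean of 135 TPM. The log2 change was 2.57 ± 0.26 (adjusted p = 1.04e-06), at place 375 from the highest.

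The promoters of this pair are shown because both genes rose while their upstream sequences differ in kind. The 250 bases before the start site, from RefSeq (GRCm38.p6), are written on the strand of the gene. Capitals mark matches to any of 4 short motifs searched on both strands. They are the RUNX pattern TGNGGT, the ETS core AGGAAG, the C/EBP motif TTGCNNAA and the IRF motif GAAANNGAA. N is any base, so the RUNX pattern is looser than the TGCGGT or TGTGGT recognised by the DNA-binding domain that AE9a keeps. The Cxcr2 window lies at chr1:74153744-74153993, plus strand, and that of Cxcr4 at chr1:128592300-128592549, minus strand.
Cxcr2: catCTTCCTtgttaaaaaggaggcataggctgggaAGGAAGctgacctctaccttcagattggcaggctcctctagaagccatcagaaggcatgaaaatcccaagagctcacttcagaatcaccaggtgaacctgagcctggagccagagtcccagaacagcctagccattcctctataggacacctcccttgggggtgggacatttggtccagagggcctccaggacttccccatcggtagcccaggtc
Cxcr4: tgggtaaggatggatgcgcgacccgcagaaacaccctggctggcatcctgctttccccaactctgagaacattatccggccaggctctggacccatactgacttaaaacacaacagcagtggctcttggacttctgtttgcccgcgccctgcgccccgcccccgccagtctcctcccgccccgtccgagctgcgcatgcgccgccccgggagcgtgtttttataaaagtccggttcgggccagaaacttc
The Cxcr2 window held 1 CpG and 2 ETS cores, and the Cxcr4 window 19 CpGs and no match to any of the motifs. Over 32851 windows of the same length the median was 6 CpGs, with quartiles of 2 and 16, and 29.5% held an ETS core. A match is a run of letters and does not show that a factor binds.

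Ccr1, the receptor for CCL3, CCL5 and, in mouse, CCL6 and CCL9 (chromosome 9, 123962124 to 123968692, minus strand), was high everywhere. It stood at 363 and 385 TPM in libraries labelled Tet2 KO, against 282 and 284 TPM in WT. The groups did not overlap, yet the change of 0.40 ± 0.23 on the log2 scale did not pass (adjusted p = 0.165). It did pass with both WT libraries as samples (adjusted p = 0.0102), with the replicate number as a block (0.0220) and with ERCC scaling (0.0108, log2 change 0.998). The first 2 of these settings count the WT libraries, which differed by little more than sampling noise, as separate samples. Over the alternatives run the log2 change lay between 0.36 and 0.998.

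Ccr7 guides mature dendritic cells and naive T cells to lymph nodes (chromosome 11, 99144196 to 99155077, minus strand). It stood at 1.80 and 2.54 TPM in libraries labelled Tet2 KO, against 267 and 272 TPM in WT. By its single annotated transcript these values correspond to about 40 and 58 reads in the libraries labelled Tet2 KO and 5270 and 4794 reads in WT. The receptor was thus still detected in the libraries where it was low. The WT mean of 270 TPM was 124-fold the mean of 2.17 ± 0.523 TPM (SD, n = 2) with the Tet2 KO label, and the log2 change was -6.43 ± 0.28 (adjusted p = 3.66e-11).

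Cx3cr1, the receptor for the membrane-bound chemokine CX3CL1 (chromosome 9, 119901616 to 120069879, minus strand), differed about as much. It stood at 2.94 and 1.57 TPM in libraries labelled Tet2 KO and at 311 and 310.5 TPM in WT. The libraries with the Tet2 KO label lay 1.87-fold apart, the widest such gap among the receptors examined, and still far from WT. The WT mean was 138-fold that of the libraries labelled Tet2 KO, and the log2 change was -6.62 ± 0.30 (adjusted p = 4.63e-10). In the order of falls over all tested genes Cx3cr1 came at place 14 and Ccr7 at place 15. The annotated span of Cx3cr1 covers 9 other genes on either strand, and the labels do not say whether reads were counted by strand.

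Ccr2 encodes the CCL2 receptor that monocytes use to leave the marrow (chromosome 9, 124101950 to 124113557, plus strand). It stood at 28.1 and 20.3 TPM in libraries labelled Tet2 KO, against 114 and 118 TPM in WT. The WT mean was 4.80-fold higher, and the log2 change was -2.23 ± 0.22 (adjusted p = 1.41e-06). Of the stretches of 50 bases in its transcripts, 1.63% occurred in another receptor gene, so its share of reads is slightly uncertain; the other 7 receptors shared none.

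Ccrl2 (chromosome 9, 111054486 to 111057519, minus strand), the atypical chemerin receptor, stood at 49.6 and 33.4 TPM in libraries labelled Tet2 KO and at 118 and 122 TPM in WT. The WT mean was 2.90-fold higher, and the log2 change was -1.54 ± 0.24 (adjusted p = 0.000267). Its tested neighbour Ltf, a granule protein gene of neutrophils 11.7 kb away, went the other way, at 575 and 328 TPM in libraries labelled Tet2 KO and 22.9 and 22.8 TPM in WT.

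Ccr3, the eotaxin receptor (chromosome 9, 124021972 to 124031689, plus strand), was not tested. It stood at 0.47 and 0.37 TPM in libraries labelled Tet2 KO and at 0.19 and 0.24 TPM in WT. That is about 18 and 15 reads in the libraries labelled Tet2 KO and 6 and 7 reads in WT. At this depth the gene was detected in every library, but far below the other receptors examined.

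Windows before the RefSeq start site are shown for Cx3cr1 and Ccr2, the lower receptors with a single start site in the table. Ccr7 has no entry there, and capitals mark the same motifs as before. The windows lie at chr9:120068297-120068546, minus strand, and chr9:124101933-124102182, plus strand. By the GENCODE coordinates the Cx3cr1 window lies inside the gene, whose span ends at 120069879. Most of the Ccr2 window, with all its marked motifs, lies past the GENCODE start at 124101950.
Cx3cr1: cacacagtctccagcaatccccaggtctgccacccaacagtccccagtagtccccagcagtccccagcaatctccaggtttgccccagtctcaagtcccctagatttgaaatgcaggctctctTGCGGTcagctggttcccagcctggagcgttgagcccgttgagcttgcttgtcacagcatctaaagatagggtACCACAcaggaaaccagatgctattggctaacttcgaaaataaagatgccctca
Ccr2: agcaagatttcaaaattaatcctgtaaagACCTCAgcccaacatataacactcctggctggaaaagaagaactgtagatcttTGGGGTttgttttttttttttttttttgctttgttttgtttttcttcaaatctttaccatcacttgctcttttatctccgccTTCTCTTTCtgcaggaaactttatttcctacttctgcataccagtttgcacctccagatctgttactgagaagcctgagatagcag
Each window held 2 matches to the loose RUNX pattern. Those of Cx3cr1 read TGCGGT and ACCACA, which is TGTGGT on the other strand. Those of Ccr2 read ACCTCA and TGGGGT, which have neither C nor T at the open base. Ccr1 had 1 match, Ccrl2 had 1 before 2 of its start sites, and Cxcr2, Cxcr4 and Ccr3 had none. Of the 32851 windows, 40.1% held at least 1 match to this loose pattern. The Cx3cr1 window had 4 CpGs and the Ccr2 window 1. The Ccr2 window also held an IRF motif, found in 7.13% of all windows, and the other receptors with an entry had none. None of the 7 with an entry held the C/EBP motif, found in 9.56% of all windows.

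The order of the levels changed between the groups. With the Tet2 KO label it ran, from the highest mean, Cxcr4, Cxcr2, Ccr1, Ccrl2, Ccr2, Cx3cr1, Ccr7 and Ccr3. In WT it ran Cx3cr1, Ccr1, Ccr7, Cxcr4, Ccrl2, Ccr2, Cxcr2 and Ccr3. With the Tet2 KO label only Cx3cr1 and Ccr7 overlapped as neighbours in that order, while Cxcr4 and Cxcr2, whose means lay 1.44-fold apart, did not. In WT no neighbours overlapped, but Ccr1 and Ccr7 were only 1.05-fold apart and Ccrl2 and Ccr2 1.03-fold.

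Seen as a whole, the 8 receptors summed to 2007 and 1649 TPM in libraries labelled Tet2 KO, against 1232 and 1243 TPM in WT. Among 26 chemokine and chemerin receptors in the table, the 8 made up 97.8% and 97.0% of summed TPM in libraries labelled Tet2 KO, against 92.6% and 92.9% in WT. Cxcr4 and Cxcr2 together took 76.1% and 70.9% with the Tet2 KO label, against 10.5% and 10.2% in WT. Cx3cr1 and Ccr7 together took 0.231% and 0.242% with the Tet2 KO label and 43.5% and 43.5% in WT. Ccr1 took 17.7% and 22.6% of it in the libraries labelled Tet2 KO and 21.2% and 21.2% in WT. In bulk RNA, fewer cells that carry a receptor and less of its RNA per cell cannot be told apart.

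**Figure D2:**
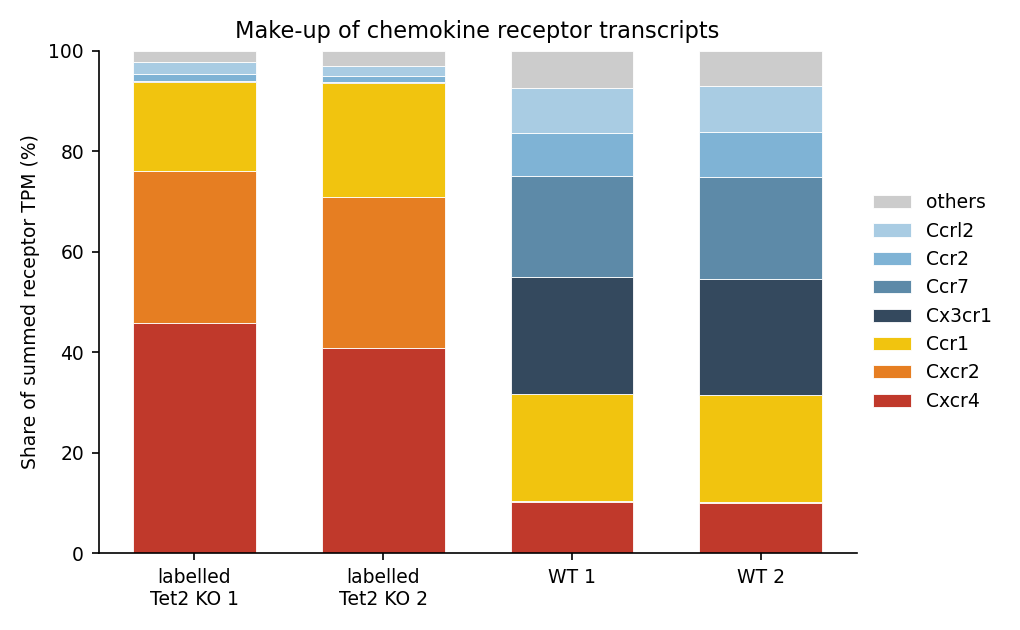
Share of each receptor in the summed TPM of 26 chemokine and chemerin receptors (vertical axis, percent) in each library, those labelled Tet2 KO on the left. Cxcr4 and Cxcr2 fill 76.1% and 70.9% of the bars labelled Tet2 KO, and Cx3cr1 and Ccr7 fill 43.5% of each WT bar.

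The remaining 18 receptors were mostly scarce. Of these, 7 passed the filter, 2 of them higher, 3 lower and 2 not called, where 48.8% of all tested genes were called. The median log2 change of the 7 was -0.39, or 0.018 with ERCC scaling. The other 11 stayed at or under 1.25 TPM in every library. Xcr1, known from cross-presenting dendritic cells, stood at 1.83 and 2.45 TPM with the Tet2 KO label and 4.62 and 5.12 TPM in WT (-0.91 ± 0.30, adjusted p = 0.0208), a call lost with ERCC scaling and quantile normalization. Ackr3, an atypical receptor that scavenges CXCL12, stood at 0.09 and 0.21 TPM with the Tet2 KO label and 1.91 and 1.16 TPM in WT, so it passed the filter through WT alone (adjusted p = 0.000735). Cxcr3 and Cxcr5, known best from lymphocytes, rose to 2.61 and 2.81 TPM and to 3.42 and 2.10 TPM in libraries labelled Tet2 KO, against 1.02 and 0.42 TPM and 0.93 and 0.82 TPM in WT (adjusted p = 0.00355 and 0.0137). Both passed the filter through the libraries labelled Tet2 KO alone, since no more than 1 WT library reached 1 TPM. The 5 T cell markers summed to 2.37 and 5.33 TPM in libraries labelled Tet2 KO and 3.47 and 3.16 TPM in WT, and the 4 B cell markers to 4.03 and 2.48 TPM and to 0.95 and 1.32 TPM; their part in these values was not tested. Cxcr6 and the chemerin receptor Cmklr1 did not pass (log2 changes of -0.39 and -0.19), and the call of Cxcr5 was lost with quantile normalization.

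Among neighbouring receptor genes on chromosome 9, those that were called were lower, and Ccr1, the exception in sign, was not called. Ccr1, Ccr3 and Ccr2 lie in a receptor cluster on chromosome 9 that also holds Ccr9, Cxcr6, Xcr1 and Ccr1l1. Ccr1 had a positive change that did not pass, at 0.40, while Ccr2, whose lower end lies 139.8 kb further on, fell by 2.23 on the log2 scale, and Xcr1, on the other side of Ccr1, fell by 0.91. Between Ccr1 and Ccr2, Ccr1l1 and Ccr3 stayed at or under 0.47 TPM in every library.

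**Figure D3:**
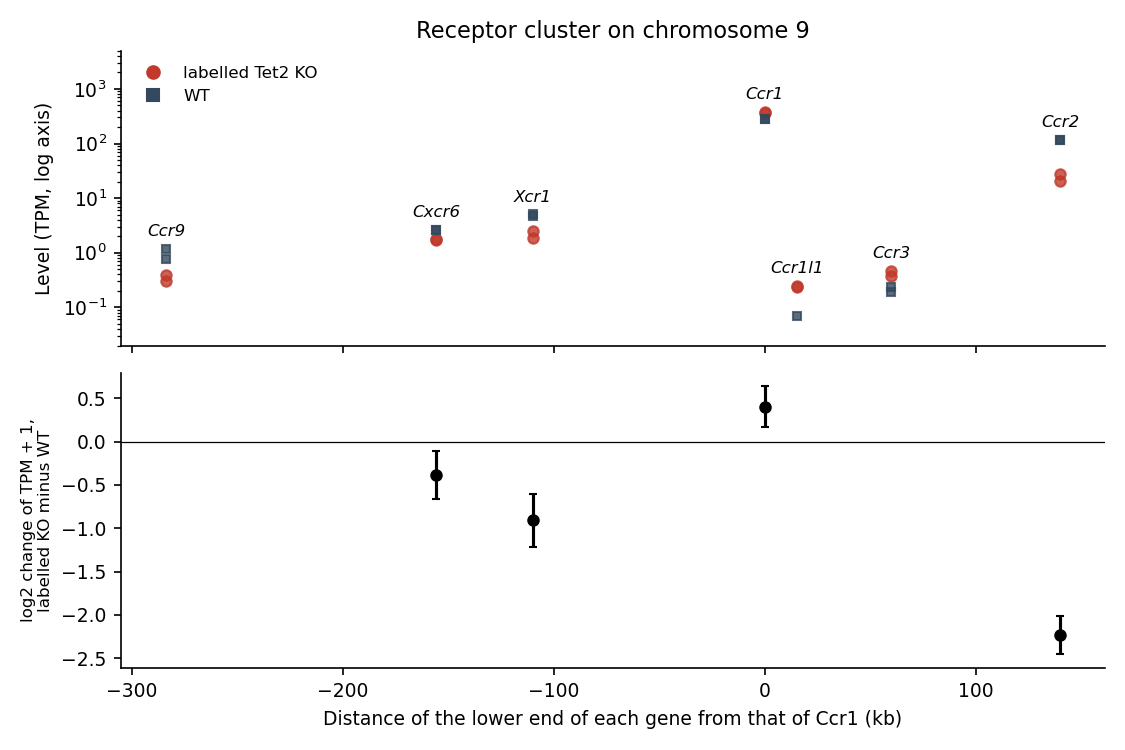
Named receptor genes of the chromosome 9 cluster by distance from Ccr1 (kb): level in each library (top, TPM, log axis; red circles labelled Tet2 KO, dark blue squares WT; a WT value of 0 for Ccr1l1 is not drawn) and log2 change with its SE for genes that passed the filter (bottom). Ccr1 lies above 0, and Xcr1, Cxcr6 and Ccr2 lie below it.

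The ligands of the 8 receptors were read in the same libraries. Of 19 listed, 18 were in the table and 12 passed the filter, with 3 higher, 5 lower and 4 not called. Over all tested genes 48.8% were called. The median log2 change of the 12 ligands was -0.38, or 0.029 with ERCC scaling. Of the Cxcr2 ligands, Cxcl1, Cxcl2 and Cxcl3 were called higher. Cxcl5 and Ppbp did not pass the filter, at 0 and 0.16 TPM and at 0.34 and 1.63 TPM in libraries labelled Tet2 KO, against 0 in both and 0.29 and 0.64 TPM in WT. Cxcl2 stood at 558 and 528 TPM in libraries labelled Tet2 KO, against 21.4 and 23.3 TPM in WT, a log2 change of 4.54 ± 0.21 (adjusted p = 1.06e-10). Cxcl1 stood at 13.6 and 13.03 TPM with the Tet2 KO label and was listed at 0 and 0.24 TPM in WT (adjusted p = 8.21e-08), so it passed the filter through the libraries labelled Tet2 KO alone. Cxcl3 stood at 11.3 and 16.7 TPM with the Tet2 KO label and 6.48 and 7.79 TPM in WT (adjusted p = 0.0282), and it missed the threshold when limma was run without trend and robust moderation.

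The ligand of Cx3cr1 fell with it. Cx3cl1 stood at 0.66 and 1.36 TPM in libraries labelled Tet2 KO, against 210.0 and 214 TPM in WT, a log2 change of -6.75 ± 0.31 (adjusted p = 1.30e-10); it passed the filter through WT alone. For Ccr7, Ccl21a was listed at 0 in every library, and Ccl19 was not analysed here. Cxcl12, the ligand of Cxcr4, was at or under 0.08 TPM in every library, and Rarres2, which encodes the chemerin bound by Ccrl2, was at 0.20 TPM or listed at 0. Ccl11, an eotaxin for Ccr3, was listed at 0 throughout, and Ccl24 stood at 0.43 and 0.82 TPM with the Tet2 KO label and 1.21 and 1.51 TPM in WT, where alone it reached the filter (adjusted p = 0.0873).

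Of the ligands of Ccr1 and Ccr2, those that were called were lower. Ccl5 stood at 17.3 and 15.6 TPM in libraries labelled Tet2 KO, against 440 and 469 TPM in WT, a log2 change of -4.71 ± 0.19 (adjusted p = 1.85e-11). Ccl9 stood at 31.8 and 32.2 TPM with the Tet2 KO label and 178 and 177 TPM in WT (-2.44 ± 0.19), and Ccl3 at 79.4 and 81.2 TPM and at 217 and 235 TPM (-1.48 ± 0.20). All of these are Ccr1 ligands, and their receptor did not pass the test. Ccl6, another of them, stood at 137 and 75.5 TPM with the Tet2 KO label and 49.7 and 48.7 TPM in WT. It did not pass in the reported test (1.03 ± 0.41, adjusted p = 0.117). It did with both WT libraries as samples (adjusted p = 0.0315), with the replicate block (0.00862) and with ERCC scaling (0.0352). The log2 change was 1.05 and 1.02 without WT replicate 1 and 2, and 0.61 and 1.46 without Tet2 KO replicate 1 and 2. Ccl2, the main ligand of Ccr2, stood at 73.9 and 76.6 TPM with the Tet2 KO label and 78.6 and 83.7 TPM in WT (-0.11 ± 0.19, adjusted p = 0.660; 0.48 with ERCC scaling), and Ccl7 did not pass either (-0.22 ± 0.29). Ccl12, a mouse ligand of Ccr2, was listed at 0 and 0.52 TPM with the Tet2 KO label and stood at 12.3 and 13.1 TPM in WT; it passed the filter through WT alone and was called (adjusted p = 3.55e-07), though not with a pseudocount of 0.1.

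**Figure D4:**
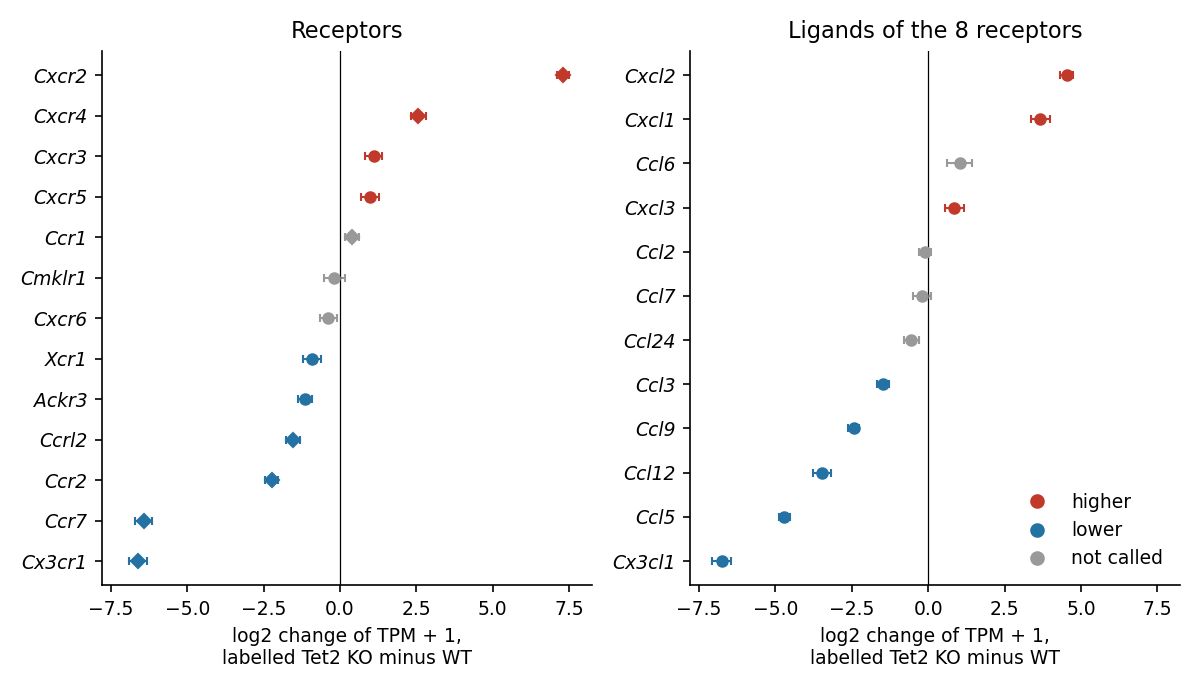
Log2 change of TPM + 1 (libraries labelled Tet2 KO minus WT) with its SE for the tested receptors named in the text (left; diamonds, the 7 receptors described above; circles, others) and ligands (right), coloured by whether limma called them higher, lower or neither. Cxcr2 at 7.30 and Cxcl2 at 4.54 lead the rises, and Cx3cr1 at -6.62 and Cx3cl1 at -6.75 the falls.

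Genes that carry the signal onward moved both ways. Of 22 tested genes of G protein signalling and migration, 8 rose and 7 fell, beside 22.1% higher and 26.7% lower of all tested genes. Their median log2 change was 0.045, or 0.64 with ERCC scaling, where 11 rose and 3 fell. Gng12, a G protein gamma subunit, stood at 62.2 and 51.7 TPM in libraries labelled Tet2 KO, against 4.92 and 4.90 TPM in WT (3.29 ± 0.23, adjusted p = 8.86e-09). Fgr, a Src family kinase of myeloid cells, stood at 385 and 286 TPM with the Tet2 KO label and 35.4 and 34.1 TPM in WT (3.22 ± 0.23). Pik3r5, a regulatory subunit of the G protein-activated PI3 kinase, fell, at 93.7 and 99.7 TPM with the Tet2 KO label and 276 and 280 TPM in WT (-1.52 ± 0.20).

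Genes that switch receptors off were read as well. Of 13 tested, 7 rose, 3 fell and 3 were not called, beside 48.8% of all tested genes called, and Rgs18, 1 of the 7, passed the filter through the libraries labelled Tet2 KO alone. The list had a median log2 change of 0.71, or 1.30 with ERCC scaling. Among the receptor kinases, Grk6 stood at 97.96 and 97.3 TPM in libraries labelled Tet2 KO, against 31.8 and 32.4 TPM in WT (1.58 ± 0.19, adjusted p = 4.17e-06), whereas Grk3 stood at 5.78 and 4.64 TPM and at 81.7 and 82.4 TPM (-3.75 ± 0.27, adjusted p = 1.41e-08). Among the RGS proteins, which shorten G protein signals, Rgs14 stood at 73.3 and 75.7 TPM with the Tet2 KO label and 21.6 and 24.1 TPM in WT (1.66 ± 0.19), and Rgs10 at 19.0 and 19.0 TPM and 181 and 179 TPM (-3.18 ± 0.19).

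Markers of the cells in which these receptors are known were read beside them, and their part in the receptor values was not tested. For comparison with the counts below, 22.1% of all tested genes were called higher and 26.7% lower. Beside Cxcr2, 12 of 13 neutrophil markers were called higher and none lower, with Ly6g passing the filter through the libraries labelled Tet2 KO alone, and the list summed to 107376 and 85991 TPM in libraries labelled Tet2 KO, against 1706 and 1744 TPM in WT. Beside Ccr7, all 6 mature dendritic cell markers were called lower, Fscn1 and Il12b among them having passed the filter through WT alone, with sums of 69.5 and 88.8 TPM with the Tet2 KO label and 1045 and 1065 TPM in WT. Of 7 markers of conventional dendritic cells 4 were tested and called lower, Zbtb46 having passed the filter through WT alone, while Clec9a and Cd209a, which define subsets, were at or under 0.53 TPM in every library and Batf3 was listed at 0 in both WT libraries. Beside Ccr2, classical monocyte markers went both ways, with 4 higher and 2 lower of 7. They summed to 16521 and 18804 TPM with the Tet2 KO label and 2214 and 2231 TPM in WT. Most of the sum with the Tet2 KO label was Chil3, at 14907 and 17069 TPM, against 290 and 295 TPM in WT. Beside Cx3cr1, which marks nonclassical monocytes, 3 of 5 tested markers of these cells were higher and 0 lower, opposite to the receptor, with sums over 6 of 641 and 559 TPM with the Tet2 KO label and 272 and 275 TPM in WT. Of 8 macrophage markers 6 were tested, 1 higher and 4 lower, with sums of 138 and 133 TPM with the Tet2 KO label and 803 and 804 TPM in WT. Beside Ccr3, the 6 eosinophil markers summed to 36.0 and 28.3 TPM with the Tet2 KO label and 2.28 and 2.32 TPM in WT, most of it Prg2 with the Tet2 KO label, through which alone Prg2 passed the filter, and Siglecf in WT, while Epx, which defines the cell type, was at 0.23 and 0.38 TPM with the Tet2 KO label and listed at 0 in both WT libraries. Of 7 leukocyte and progenitor identity genes, 4 were called higher, 1 lower and 2 not called. The leukocyte marker Ptprc, at 413 and 396 TPM with the Tet2 KO label and 292 and 296 TPM in WT, did not pass. Nor did the myeloid factor Spi1, at 650 and 508 TPM and at 662 and 630 TPM. Itgam was higher, at 719 and 529 TPM and at 148 and 150 TPM. Cd33, at 644 and 404 TPM and at 144 and 141 TPM, was higher too. So was Cebpa, at 35.7 and 46.9 TPM and at 14.3 and 12.6 TPM. The progenitor marker Kit stood at 1.93 and 2.20 TPM with the Tet2 KO label and 0.86 and 0.81 TPM in WT, so it passed the filter through the libraries labelled Tet2 KO alone (adjusted p = 0.0329), and Cd34 at 14.7 and 15.8 TPM and at 60.6 and 60.7 TPM, a fall (3.53e-06).

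The genes most like each receptor were found by the Euclidean distance of their log2(TPM + 1) values over the 4 libraries. Genes with provisional names, such as those with Gm or Rik, pseudogenes named with -ps and rows named as dates were left out. Over so few libraries many genes share a pattern, so the distances are descriptive. The nearest to Cxcr2 were Pygl, which encodes liver glycogen phosphorylase, and Tinagl1, at distances of 1.10 and 1.26. None of the genes searched lay within 1. Cxcr4 had Plaur, the urokinase receptor, at 0.46 and Itgam, an integrin of neutrophils and monocytes, at 0.58. Ccr7 and Cx3cr1 had the same nearest gene, the guanylate-binding protein gene Gbp5, at 0.39 and 0.42. Gbp5 stood at 2.57 and 2.30 TPM in libraries labelled Tet2 KO, against 287 and 286 TPM in WT. Next came Ms4a4c for Ccr7, at 0.59, and Ccr7 itself for Cx3cr1, at 0.74. Ccr1 had Prr13 at 0.14 and Nckap1l at 0.21, Ccr2 had the inhibitory lectin receptor Clec12a at 0.28 and Yars at 0.36, and Ccrl2 had Mefv and P2ry6, both at 0.29.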

How the data were processed

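Expression was measured by RNA-seq in 4 libraries, 2 labelled Tet2 KO and 2 WT. The deposited values are TPM over 24589 rows, 92 of them ERCC spike-ins; the authors' tools STAR and RSEM and the mm10 build stand in the submitters' processing notes with no version, and no annotation is stated in the labels. Depth is not stated and was estimated from TPM of genes with a single GENCODE transcript of 600 to 2500 nt, multiplied by length minus 200 nt; 70.1% to 79.7% of low values lay within 0.2 of a whole multiple. No counting interval is given. Tests used limma (version 3.58.1, R 4.3.3) with trend and robust moderation on log2(TPM + 1), the WT mean as 1 sample and 1 residual degree of freedom from the libraries labelled Tet2 KO. The spread of WT is thus taken to equal theirs. A gene was tested if 2 or more libraries reached 1 TPM (11919 genes). P-values are two-sided and Benjamini-Hochberg adjusted over these genes, with a threshold of 0.05. On simulated TPM of 11919 genes for Tet2 KO against WT, 79.8% of log2 changes of 1 and 98.1% of those of 2 were recovered. There each WT library had independent noise sized by the spread between libraries labelled Tet2 KO, and few genes were changed. The measured WT libraries differed by little more than sampling noise, so these rates may not hold for the reported test. On this scale the changes of low genes are understated. Named genes are the 8 receptors, Tet2, tested other receptors and ligands, the 2 smallest p in each direction of the signalling and desensitisation lists, and the 2 nearest genes per receptor; markers, Ltf, Rgs18, Xist, Eif2s3y, Cxcr1, untested ligands and listed genes at 0 were named beside them. Some genes are counted in their lists but not reported here by name. Members and lists were chosen with earlier results of these data known. Coordinates are from GENCODE M21, counted from 1. The 12 alternatives tried changed the filter, pseudocount, scaling, moderation, the treatment of the WT libraries, a replicate block, or left out a library.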

Additional observations from a re-analysis of the deposited data

How the results depend on the processing

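The directions of the 7 tested receptors held under all 12 alternatives run. Without the filter on low values every call was lost: adjusted p was 0.0586 for Cxcr2 (log2 change 7.30), 0.0642 for Ccr7 (-6.43), 0.0843 for Cx3cr1 (-6.62), 0.118 for Cxcr4 (2.57), 0.134 for Ccr2 (-2.23), 0.202 for Ccrl2 (-1.54) and 0.117 for Tet2 (0.58), and 0 receptors, 123 higher and 295 lower genes, 2 ligands, 1 other receptor, 2 desensitisation and 0 signalling genes were called. In the other alternatives the calls of these 6 receptors held. Tet2 also missed the threshold without trend and robust moderation (0.58, adjusted p = 0.0713). Ccr1 passed with both WT libraries as samples (0.40), with the replicate block (0.40), with ERCC scaling (0.998) and without either library labelled Tet2 KO (0.36 to 0.44), where both WT libraries entered as samples. The difference of Ccr3 was 0.72 with a pseudocount of 0.1 and 0.37 with ERCC scaling. Over all genes 2750 to 3803 were higher and 2964 to 5687 lower when a library was left out. Scaling to the ERCC total gave 4942 higher and 1492 lower genes, which is 76.8% higher among the calls, against 45.2% in the reported test (2629 higher, 3182 lower). Lower calls numbered 4995 without Tet2 KO replicate 1 and 5687 without Tet2 KO replicate 2. Other receptors called were 1 with a filter of 5 TPM and 3 with quantile normalization. Same-numbered libraries did not deviate together (r = -0.011 over 11919 genes). The WT libraries differed by little more than sampling noise, so this cannot show whether the numbers pair libraries. The block gave 3495 higher and 4461 lower genes, and 3 receptors higher and 4 lower. The cause of these changes was not tested. Depth limits Ccr3, at 6 to 18 estimated reads.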
